A study of Homo sapiens with 16 samples.

Results

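The 35 genes described here make cholesterol and fatty acids or control that synthesis. They were taken as a fixed list of gene symbols from the deposited table of TMM-scaled CPM, which are counts scaled by library total and then between libraries by the trimmed mean of M-values, and are written CPM below. That table lists 22916 genes, and the raw count table behind it 60668. All 35 genes were found, and all 35 were among the 17104 genes that passed the filter on low counts and were tested. They form 4 classes. The sterol enzymes are 18 genes from HMGCS1 to DHCR7 and ACAT2, the fatty acid and lipid enzymes are 8 genes around FASN and SCD, the SREBP regulators with the sterol carrier STARD4 are 6 genes, and the LXR targets are 3 genes.

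Cells build cholesterol from acetyl-CoA by the mevalonate pathway, which makes isoprenoid units, joins them to squalene, closes squalene to lanosterol and trims lanosterol to cholesterol. Fatty acids start from the same acetyl-CoA, which ACLY makes from citrate, ACACA commits, FASN assembles, and the elongase ELOVL6 and the desaturases SCD, FADS1 and FADS2 modify. The transcription factors SREBP1 and SREBP2, encoded by SREBF1 and SREBF2, switch on most of these genes. Both are made as membrane proteins of the endoplasmic reticulum, where SCAP escorts them towards their activating proteases and INSIG1 and INSIG2 hold them back when sterols are plentiful. The LXR nuclear receptors act on the other side of the balance, and induce the sterol exporters ABCA1 and ABCG1, the ubiquitin ligase MYLIP and also SREBF1 when oxysterols accumulate.

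The RNA came from bulk cultures of HCT116, a human cell line established from colon cancer. Unedited cells (WT below, labelled as control genotype) were set against cells edited to carry an Rpn10 truncation (truncation below). Rpn10, encoded by PSMD4, binds ubiquitin chains at the proteasome, and the edited protein lacks its ubiquitin interacting motif. The sources used here do not say whether the edited cells are a single clone, so the edit and any difference between lines cannot be told apart. All cells of both genotypes were reverse transfected with RNAiMAX for 48 hours at 50 nM, either with a scrambled siRNA (scramble) or with 4 pooled siRNAs that target OTUD5, a deubiquitinase (knockdown). This made 4 groups of 4 libraries, and n is 4 libraries for every group value below. A value given with ± and no other name is a log2 fold change with its standard error, from a fit of all 16 libraries with edgeR, and a gene is said to rise or fall where its p, adjusted over all tested genes, is under 0.05. Labels describe biological replicates but name no separate cultures, and the spread behind a p-value is that among these libraries, which may be technical.

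Each library held 28777244 to 29645663 counts. OTUD5 itself was at 90.2, 88.7, 83.9 and 91.0 CPM in the WT scramble libraries, at 19.4, 17.5, 21.1 and 22.1 in WT knockdown, at 94.97, 91.7, 96.7 and 96.3 in truncation scramble and at 19.6, 19.3, 22.3 and 21.7 in truncation knockdown. Its level was low in all 8 knockdown libraries, which include the 4 libraries of truncation cells whose titles say scramble while their descriptions and treatment labels name OTUD5 siRNA. PSMD4, which a count over the whole gene cannot check for the edit, changed by a log2 of -0.24 ± 0.06 with the truncation in scramble cells. WT knockdown replicate 2 differed most from the other libraries of its group, with a chi-square per degree of freedom of up to 23.9, and WT knockdown replicate 3 had at least 1 count in 32264 genes, against 25626 to 27765 elsewhere. The epithelial markers of the line summed to 4033 to 5573 CPM, although VIL1 was near 0, and they did not move alike. KRT8, the most abundant, was at 2034 to 2335 CPM in WT scramble and 2786 to 3454 in truncation knockdown libraries. CDH1 was at 46.3 to 64.9 CPM in WT and 26.2 to 31.9 in truncation libraries, and EPCAM was at 213 to 238 CPM in WT scramble and 105 to 121 in truncation knockdown libraries. Fibroblast markers, of which COL1A1 was by far the most abundant, summed to 47.0 to 57.2 CPM in WT scramble libraries and 34.3 to 47.9 in the others, and endothelial markers to at most 2.89 CPM. Leukocyte markers summed to at most 1.94 CPM in 15 libraries and to 13.2 in WT scramble replicate 4, of which PTPRC made 11.7. Without that library 202 of 210 values of the 35 genes kept their side of the threshold, and no called value changed direction. The part of epithelial and fibroblast markers in the results was not tested. In bulk RNA, fewer cells of a kind and less RNA per cell cannot be told apart.

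Together the 35 genes took 0.789 ± 0.028% of the counts (SD, n = 4) in WT scramble cells and 0.634 ± 0.078% after knockdown. In truncation cells they took 0.498 ± 0.015% with scramble and 0.326 ± 0.019% with OTUD5 siRNA. FASN and SCD alone took 0.468%, 0.306%, 0.244% and 0.103% in that order. Sterol enzymes followed another course. Their median level relative to the WT scramble mean was 0.04 to 0.31 on the log2 scale in the 4 WT knockdown libraries, and in truncation cells -0.30 to -0.25 with scramble and -0.40 to -0.29 with knockdown. The corresponding medians of the fatty acid class were -0.55 to -0.23, -0.69 to -0.60 and -1.58 to -1.27, so its 3 other groups lay in separate ranges below WT scramble.

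**Figure D1:**
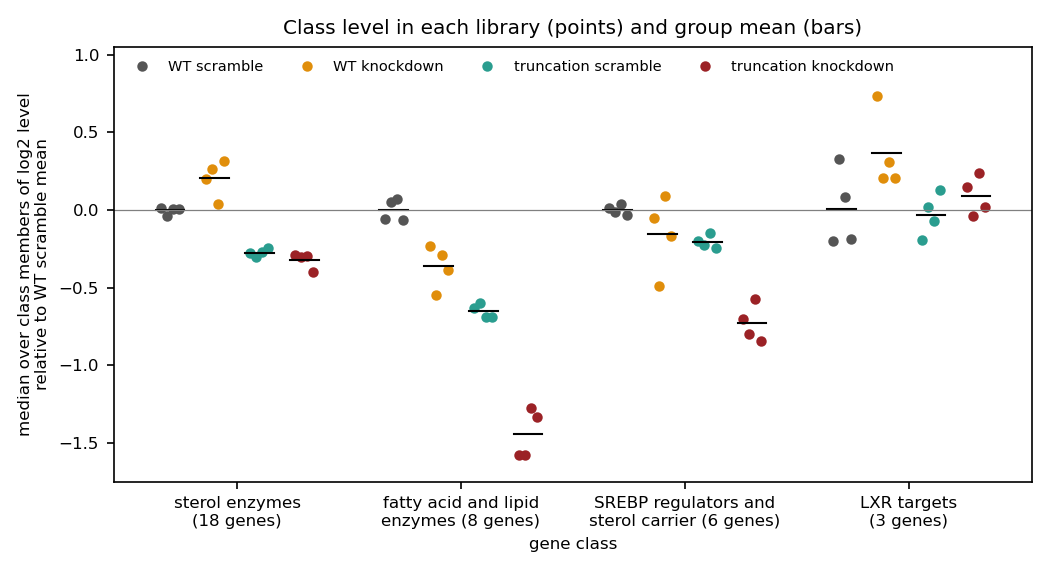
Median log2 level over the genes of each class, relative to the WT scramble mean of each gene, in each of the 16 libraries (points, coloured by group) with the mean over the 4 libraries of a group (bars). The sterol enzymes lie above 0 in the WT knockdown libraries and below 0 in both truncation groups, while the fatty acid and lipid enzymes reach -1.58 in truncation knockdown.

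Counted gene by gene with edgeR at an adjusted p under 0.05, the truncation in scramble cells lowered 24 of the 35 genes and raised 1, where 22.4% of all tested genes were called lower and 21.6% higher. In knockdown cells the truncation lowered 29 and raised 2, against 23.6% and 21.9% of all tested genes. With knockdown in WT cells 12 genes (34.3%) rose and 10 (28.6%) fell, against 25.2% higher and 25.1% lower over all tested genes, so both shares are near that background. In truncation cells 8 (22.9%) rose, a share below the 28.7% over all tested genes, and 17 (48.6%) fell, against 28.1%. Both changes together, truncation knockdown against WT scramble, gave 6 higher and 23 lower, against 33.2% and 33.5%. The interaction subtracts the effect of knockdown on WT cells from its effect on truncation cells. It was called for 13 genes below 0 and 1 above 0, where 3.65% and 2.05% of all tested genes were called. Over all tested genes the interaction calls were 350 higher and 624 lower, and 502 higher and 397 lower with upper-quartile scaling, under which 7 of the 35 genes were called below 0.

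**Figure D2:**
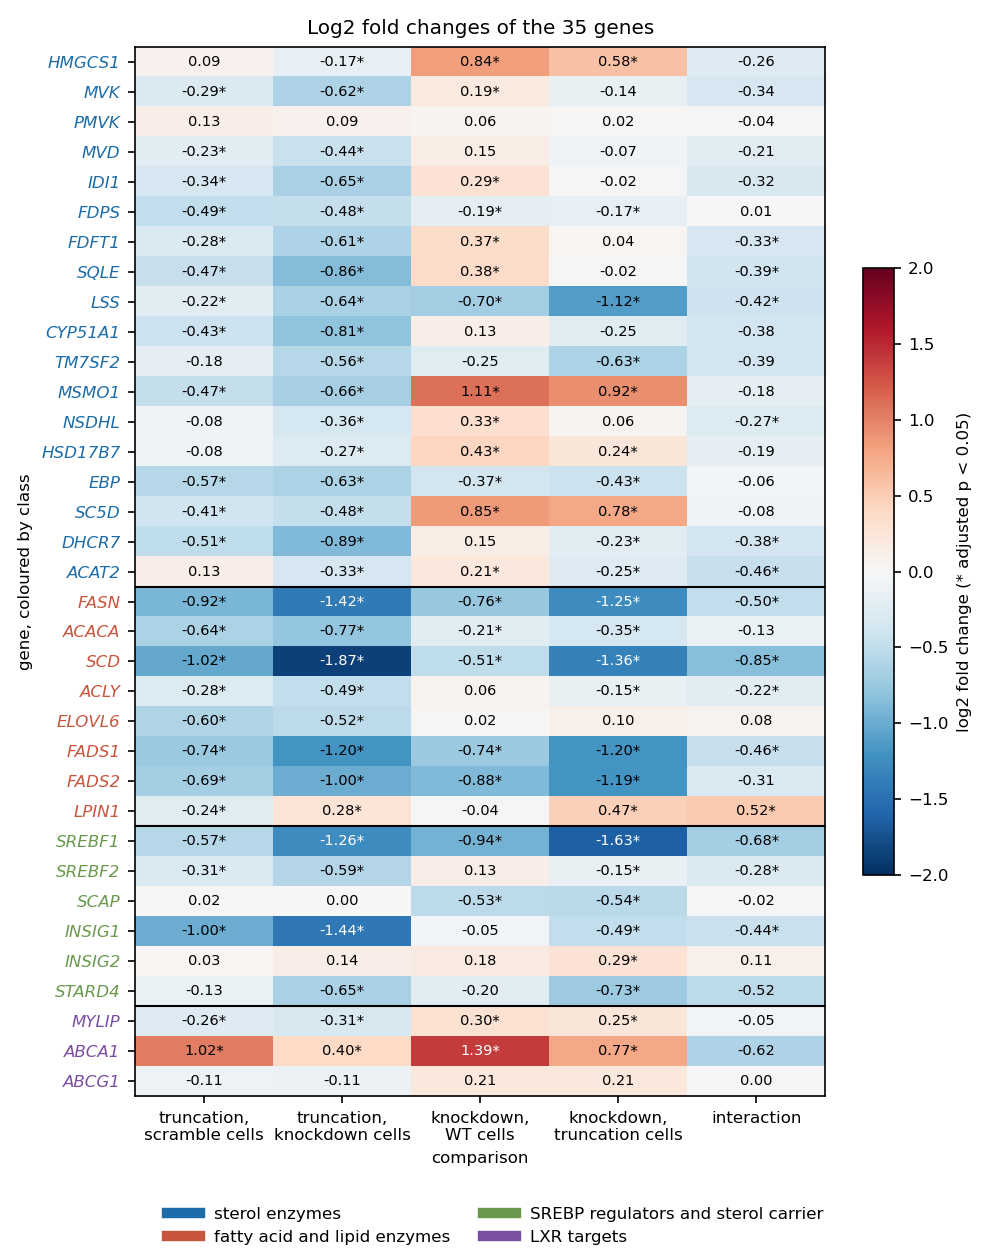
Log2 fold changes of the 35 genes (vertical axis, coloured by class) in 5 comparisons (horizontal axis), with an asterisk where the edgeR adjusted p is under 0.05. The columns for the truncation are mostly blue in every class, while the columns for knockdown are red for MSMO1, SC5D and HMGCS1 and blue for SREBF1, FASN, SCD, FADS1 and FADS2.

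By class, the truncation in scramble cells lowered 12 of 18 sterol enzymes (median log2 fold change -0.28), 8 of 8 fatty acid and lipid enzymes (median -0.66), 3 of 6 regulators (median -0.22) and 1 of 3 LXR targets. The median over all tested genes was -0.02. Knockdown in WT cells raised 10 sterol enzymes and lowered 3 (median 0.20), lowered 5 fatty acid enzymes (median -0.36), and lowered 2 regulators (median -0.13), where the median over all tested genes was 0.01. In truncation cells it raised 4 sterol enzymes and lowered 6 (median -0.04), lowered 6 fatty acid enzymes and raised 1 (median -0.77), and lowered 5 regulators and raised 1 (median -0.52), beside 0.02 over all tested genes. The 2 knockdown comparisons share no libraries but used the same siRNAs. How many of all tested genes were called alike in both was not counted, so the overlaps that follow have no background beside them. Rising in both were HMGCS1, MSMO1, HSD17B7, SC5D, MYLIP and ABCA1, which are 6 of the 12 that rose in WT cells and of the 8 that rose in truncation cells. Falling in both were FDPS, LSS, EBP, FASN, ACACA, SCD, FADS1, FADS2, SREBF1 and SCAP, which are 10 of the 10 that fell in WT cells and of the 17 that fell in truncation cells. ACAT2 was called in opposite directions.

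Promoter sequences are shown for members on either side of this split, since SREBPs and their partner NF-Y bind close to the start sites of known target genes. The stretches come from RefSeq windows (GRCh38.p14), lie before the annotated start outside annotated exons, and run 5′ to 3′ on the strand of the gene, with the NF-Y motif CCAAT or its reverse complement ATTGG in capitals. HMGCS1 (chr5:43313513-43313632, minus strand) and MSMO1 (chr4:165327503-165327622, plus strand) rose with knockdown in both genotypes, and LSS (chr21:46228825-46228944, minus strand), SCD (chr10:100347004-100347123, plus strand) and SREBF1 (chr17:17837003-17837122, minus strand) fell in both.
HMGCS1: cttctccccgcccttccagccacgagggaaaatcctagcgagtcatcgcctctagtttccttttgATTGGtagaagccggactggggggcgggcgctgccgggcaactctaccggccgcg
MSMO1: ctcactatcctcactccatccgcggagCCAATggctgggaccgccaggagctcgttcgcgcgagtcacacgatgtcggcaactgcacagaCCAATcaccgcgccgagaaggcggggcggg
LSS: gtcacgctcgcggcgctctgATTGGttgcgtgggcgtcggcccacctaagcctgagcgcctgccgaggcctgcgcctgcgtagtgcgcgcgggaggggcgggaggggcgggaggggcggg
SCD: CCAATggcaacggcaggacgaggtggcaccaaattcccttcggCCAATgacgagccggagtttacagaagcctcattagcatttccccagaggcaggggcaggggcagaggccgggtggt
SREBF1: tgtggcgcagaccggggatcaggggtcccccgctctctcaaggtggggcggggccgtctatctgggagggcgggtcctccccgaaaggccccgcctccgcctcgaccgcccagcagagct
The sterol regulatory element, the motif that SREBPs recognise, or a looser form of it is shown for the 2 control genes that hold either. These sites of 30 bases, unlike the stretches, were not kept outside annotated exons. SREBF2 (chr22:41832962-41832991, plus strand) carries TCACNCCAC in the form TCACCCCAC, and INSIG1 (chr7:155297760-155297789, plus strand) carries the looser form TCANNCCAC as TCAGGCCAC, both in capitals.
SREBF2: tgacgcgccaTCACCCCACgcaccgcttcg
INSIG1: cggggcaagcTCAGGCCACgcccctgggcg

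RefSeq windows were matched for 30 of the 35 genes, and ACAT2, FASN, SQLE, FDFT1 and ABCG1 had none. Motifs were searched on both strands in the 250 bases before each start, and a gene was counted if any of its starts held a match. CCAAT was found in 20 of 30 members (66.7%), against 37.0% of the 27305 genes in the table, which were not limited to the tested genes. It was in 3 of 7 fatty acid and lipid enzymes (42.9%), 3 of 6 regulators (50.0%) and 1 of 2 LXR targets. Among sterol enzymes it was in 13 of 15, including HMGCS1, MSMO1, HSD17B7 and SC5D, which rose with knockdown in both genotypes, and FDPS, LSS and EBP, which fell in both. The letters were thus present on both sides of the split. The 10 members without it were SREBF1, SCAP, INSIG2, FADS1, FADS2, ELOVL6, LPIN1, ABCA1, CYP51A1 and PMVK. The GC box GGGCGG, the letters bound by SP1, was in 29 of 30 members (96.7%), against 46.2% of all genes. TCACNCCAC was in 1 member, SREBF2 (3.33% of 30, against 1.09% of all genes), and the looser TCANNCCAC, which includes it, in ACLY, INSIG1 and SREBF2 (3.89% of all genes). Neither CCAAT nor GGGCGG can lie within TCANNCCAC, and a match describes these letters without showing binding. The lack of a match covers only these letters in these 250 bases, and does not show that a gene has no SREBP site.

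At the head of the sterol pathway HMGCS1 rose with knockdown in both genotypes. HMGCS1 (ENSG00000112972, chromosome 5, 43289395 to 43313512), which makes HMG-CoA, stood at 89.3, 86.4, 102 and 90.9 CPM in the WT scramble libraries, at 157, 179, 165 and 154 in WT knockdown, at 103, 100.4, 98.6 and 94.0 in truncation scramble and at 149, 143, 154 and 132 in truncation knockdown. Every knockdown library of either genotype was above every scramble library. The log2 fold change with knockdown was 0.84 ± 0.06 in WT cells (edgeR adjusted p 7.42e-11) and 0.58 ± 0.06 in truncation cells (edgeR adjusted p 1.84e-08), a 1.79-fold and a 1.496-fold rise. The truncation gave 0.09 ± 0.06 in scramble cells, which was not called, and -0.17 ± 0.06 in knockdown cells, a call that was lost without WT knockdown replicate 2, truncation knockdown replicate 2 or truncation knockdown replicate 4, with edgeR adjusted p up to 0.0859. The mevalonate kinase MVK rose with knockdown in WT cells by 0.19 ± 0.07, with groups that overlap, and this call was lost without WT scramble replicate 2 or 4 or WT knockdown replicate 4, where the value went down to 0.11 with edgeR adjusted p of up to 0.182. PMVK, the next kinase, was called in none of the 6 comparisons, and its 95% interval for knockdown in WT cells was -0.10 to 0.22. MVD, which makes isopentenyl diphosphate, fell with the truncation in scramble (-0.23 ± 0.07) and in knockdown cells (-0.44 ± 0.07) and was not called for knockdown, although the WT value of 0.15 was called with the replicate block and without WT scramble replicate 1 or WT knockdown replicate 2 or 3 (edgeR adjusted p down to 0.0253). IDI1, the isomerase of that product, rose with knockdown in WT cells (0.29 ± 0.08) and was at -0.02 ± 0.08 in truncation cells, while the truncation lowered it, with log2 fold changes of -0.34 ± 0.08 and -0.65 ± 0.08 in scramble and knockdown cells.

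FDPS, which makes farnesyl diphosphate, went the other way. It stood at 58.1, 56.5, 51.5 and 49.9 CPM in the WT scramble libraries, at 47.0, 48.8, 40.3 and 52.7 in WT knockdown, at 39.7, 38.5, 38.2 and 39.0 in truncation scramble and at 33.5, 33.2, 32.9 and 34.97 in truncation knockdown. The truncation scramble libraries lay below every WT library, and the truncation knockdown libraries were lower still. The truncation effect was -0.49 ± 0.07 in scramble cells (edgeR adjusted p 1.42e-06) and -0.48 ± 0.07 in knockdown cells. Knockdown gave -0.19 ± 0.07 in WT cells, where the groups overlap and the call was lost without WT scramble replicate 1 or 2 or WT knockdown replicate 3 (edgeR adjusted p up to 0.103), and -0.17 ± 0.07 in truncation cells, a call lost with upper-quartile scaling at -0.12. Annotation lists 8 FDPS pseudogenes, and how reads were shared with them is not given, so its level is uncertain. RUSC1-AS1, on the opposite strand, overlaps 18.6% of the exonic bases of FDPS.

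The enzymes that make and oxidise squalene rose with knockdown in WT cells and showed no detectable change in truncation cells. SQLE, the squalene epoxidase, stood at 88.2, 92.2, 97.9 and 90.7 CPM in the WT scramble libraries, at 122, 114, 123 and 116 in WT knockdown, at 64.1, 71.7, 68.1 and 65.7 in truncation scramble and at 65.8, 65.4, 72.0 and 57.0 in truncation knockdown. WT knockdown libraries were the highest group, and the 2 truncation groups overlapped well below WT scramble. Its knockdown effect was 0.38 ± 0.06 in WT cells (edgeR adjusted p 1.34e-05) and -0.02 ± 0.06 in truncation cells (95% interval -0.15 to 0.12), with an interaction of -0.39 ± 0.09 (edgeR adjusted p 0.0079). FDFT1, which joins farnesyl units to squalene, gave 0.37 ± 0.06 and 0.04 ± 0.06 with an interaction of -0.33 ± 0.08 (edgeR adjusted p 0.0127). The truncation lowered both genes, with log2 fold changes of -0.47 ± 0.06 for SQLE and -0.28 ± 0.06 for FDFT1 in scramble cells.

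LSS (ENSG00000160285, chromosome 21, 46188141 to 46228824), which closes the ring to lanosterol, was the sterol enzyme with the most negative knockdown effect in each genotype. It stood at 113, 111, 104 and 102 CPM in the WT scramble libraries, at 70.9, 50.9, 66.2 and 74.8 in WT knockdown, at 97.5, 91.5, 94.1 and 89.4 in truncation scramble and at 43.2, 38.2, 46.3 and 39.6 in truncation knockdown. The 4 groups did not overlap, and the order from high to low was WT scramble, truncation scramble, WT knockdown and truncation knockdown. Knockdown lowered LSS, with log2 fold changes of -0.70 ± 0.08 in WT cells (edgeR adjusted p 1.6e-07) and -1.12 ± 0.08 in truncation cells (edgeR adjusted p 4.32e-11), the latter a 2.17-fold drop. Within WT knockdown, replicate 2 was lowest, and without it the WT effect was -0.59. The truncation effect in scramble cells was small, -0.22 ± 0.08, and its call was lost without replicate 1 or 2 of WT scramble or any of truncation scramble replicates 2, 3 and 4 (edgeR adjusted p up to 0.0964).

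Beyond lanosterol the demethylating enzymes split. MSMO1 (ENSG00000052802, chromosome 4, 165327623 to 165343160), the sterol C4-methyl oxidase, stood at 52.7, 52.9, 57.3 and 59.7 CPM in the WT scramble libraries, at 116, 118, 128 and 113 in WT knockdown, at 39.5, 40.2, 41.1 and 41.0 in truncation scramble and at 75.7, 77.5, 81.4 and 65.5 in truncation knockdown. Knockdown libraries were above scramble libraries in each genotype, and truncation libraries below WT libraries at each siRNA. It had the largest rise of all sterol enzymes with knockdown, 1.11 ± 0.07 in WT cells (2.15-fold, edgeR adjusted p 1.23e-12) and 0.92 ± 0.07 in truncation cells (1.899-fold, edgeR adjusted p 1.49e-11), and the interaction was -0.18 ± 0.09, which was not called. The truncation lowered it, with log2 fold changes of -0.47 ± 0.07 in scramble and -0.66 ± 0.06 in knockdown cells. NSDHL, the dehydrogenase that acts after MSMO1, rose in WT cells (0.33 ± 0.05) and was at 0.06 ± 0.06 in truncation cells. HSD17B7, the matching ketoreductase, rose by 0.43 ± 0.08 and 0.24 ± 0.08, the latter call being lost without truncation scramble replicate 1 or truncation knockdown replicate 2 (edgeR adjusted p up to 0.089). Annotation lists 2 HSD17B7 pseudogenes, so its level is uncertain. CYP51A1, the lanosterol demethylase, was lowered by the truncation (-0.43 ± 0.12 and -0.81 ± 0.12) and not called for knockdown, except in truncation cells without truncation knockdown replicate 4 (-0.40, edgeR adjusted p 0.0101). Overlaps of its exons with 3 other annotated genes add up to 86.0% of its exonic bases, and it has 3 pseudogenes, so its counts are uncertain. TM7SF2, the sterol C14 reductase, was lowered by knockdown in truncation cells (-0.63 ± 0.12) and stood at -0.25 ± 0.12 in WT cells, where replicate 2 at 15.7 CPM lay apart from the other 3 at 24.7 to 27.1. That WT value was not called, was -0.09 without replicate 2 (edgeR adjusted p 0.364), and was called without WT scramble replicate 3 or WT knockdown replicate 1 and with no filter on low counts.

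The last steps also split. SC5D, the desaturase that makes 7-dehydrocholesterol, stood at 44.7, 45.3, 47.7 and 45.8 CPM in the WT scramble libraries, at 82.7, 88.2, 84.0 and 74.4 in WT knockdown, at 36.8, 37.0, 33.0 and 33.1 in truncation scramble and at 58.2, 60.7, 61.8 and 53.8 in truncation knockdown. Its 4 groups did not overlap, with WT knockdown highest and truncation scramble lowest. Knockdown raised it by 0.85 ± 0.06 in WT cells and 0.78 ± 0.06 in truncation cells (edgeR adjusted p 5.25e-11 and 1.48e-10), and the truncation lowered it, with log2 fold changes of -0.41 ± 0.06 and -0.48 ± 0.06. EBP, the isomerase just before SC5D, stood at 21.1, 17.7, 16.9 and 19.7 CPM in the WT scramble libraries, at 14.1, 16.01, 11.4 and 16.6 in WT knockdown, at 11.8, 13.3, 12.7 and 13.4 in truncation scramble and at 8.85, 9.35, 9.63 and 9.31 in truncation knockdown. It was lower than WT scramble in every library of the other 3 groups. Both changes lowered it, knockdown with -0.37 ± 0.09 and -0.43 ± 0.10 in WT and truncation cells, and the truncation with -0.57 ± 0.09 and -0.63 ± 0.10 in scramble and knockdown cells. Truncation knockdown therefore stood 2.00-fold below WT scramble (log2 -1.0 ± 0.09, edgeR adjusted p 1e-09).

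DHCR7, which reduces 7-dehydrocholesterol to cholesterol, stood at 194, 178, 181 and 198 CPM in the WT scramble libraries, at 228, 186, 189.9 and 226 in WT knockdown, at 133, 134, 133 and 134 in truncation scramble and at 106, 122, 115 and 101 in truncation knockdown. The WT groups overlapped, and each truncation group lay below both. The truncation lowered DHCR7, with log2 fold changes of -0.51 ± 0.06 in scramble cells and -0.89 ± 0.07 in knockdown cells, and knockdown lowered it in truncation cells, with -0.23 ± 0.06 (edgeR adjusted p 0.00404), while in WT cells it gave 0.15 ± 0.06 at an edgeR adjusted p of 0.0508. That rise in WT cells was called with upper-quartile scaling, with DESeq2 size factors, by the DESeq2 Wald test and without WT scramble replicate 4, WT knockdown replicate 2 or 3 or truncation knockdown replicate 4, at edgeR adjusted p down to 0.00853. ACAT2, the cytosolic thiolase that feeds HMGCS1, stood at 23.8, 24.6, 25.7 and 24.6 CPM in the WT scramble libraries, at 27.1, 30.9, 25.1 and 30.5 in WT knockdown, at 27.4, 27.2, 28.3 and 26.4 in truncation scramble and at 24.1, 22.4, 21.1 and 21.9 in truncation knockdown. It rose with knockdown in WT cells (0.21 ± 0.07) and fell in truncation cells (-0.25 ± 0.07), with an interaction of -0.46 ± 0.09 (edgeR adjusted p 0.00394). Overlaps with SOD2-OT1 and other genes add up to 69.7% of its exonic bases, and the strand setting of the counting is not given, so this value is uncertain.

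**Figure D3:**
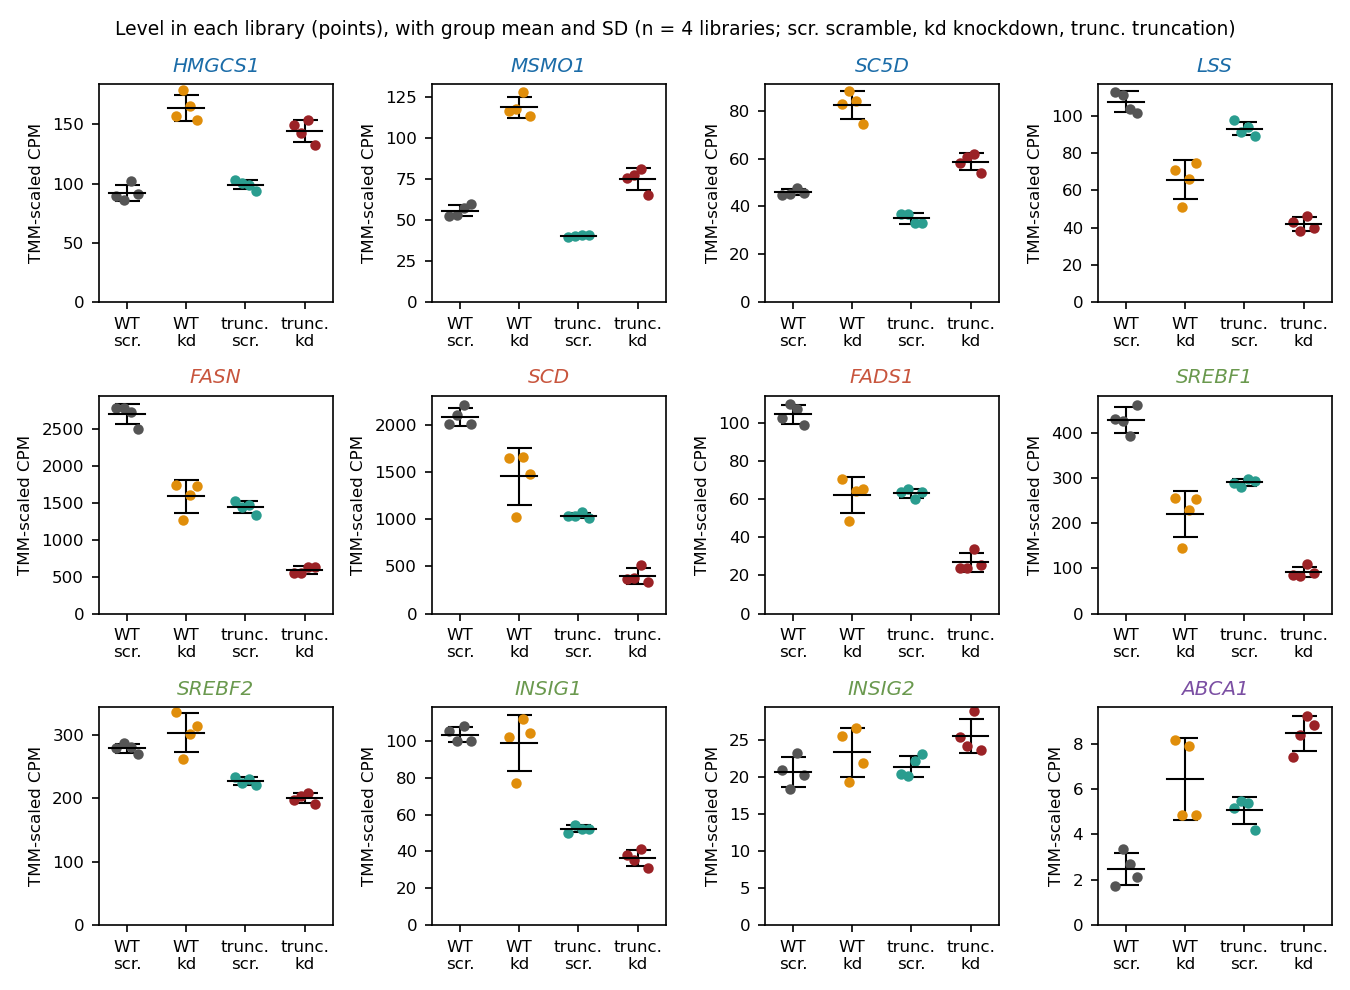
CPM (vertical axes, starting at 0) of 12 of the 35 genes in each library of the 4 groups, with the group mean and SD (n = 4) in black and gene names coloured by class as in the heatmap of fold changes. HMGCS1, MSMO1 and SC5D are higher in knockdown than in scramble libraries of the same genotype, whereas LSS, FASN, SCD, FADS1 and SREBF1 are lower and reach their lowest levels in truncation knockdown.

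All 8 fatty acid and lipid enzymes fell with the truncation in scramble cells, 5 fell with knockdown in WT cells, and 6 fell and 1 rose with knockdown in truncation cells. FASN (ENSG00000169710, chromosome 17, 82078333 to 82098332), the fatty acid synthase, stood at 2790, 2790, 2736 and 2512 CPM in the WT scramble libraries, at 1750, 1273, 1611 and 1730 in WT knockdown, at 1522, 1450, 1477 and 1335 in truncation scramble and at 548, 550.4, 638 and 629.6 in truncation knockdown. WT scramble was above every other library, truncation knockdown below every other library, and the remaining 2 groups overlapped each other. The truncation lowered it, with log2 fold changes of -0.92 ± 0.08 in scramble cells (edgeR adjusted p 8e-10), and so did knockdown, with -0.76 ± 0.08 in WT cells (edgeR adjusted p 1.75e-08) and -1.25 ± 0.08 in truncation cells (edgeR adjusted p 1.64e-12). Together they left -2.17 ± 0.08, a 4.51-fold difference.

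SCD (ENSG00000099194, chromosome 10, 100347124 to 100364834), which makes monounsaturated fatty acids, had the most negative value of the 35 genes for both changes together. It stood at 2004, 2108, 2211 and 2008 CPM in the WT scramble libraries, at 1652, 1022, 1661 and 1477 in WT knockdown, at 1029, 1039, 1073 and 1015 in truncation scramble and at 362, 374, 516 and 334 in truncation knockdown. Within WT knockdown, replicate 2 lay at the level of the truncation scramble libraries, and otherwise the groups were apart. The truncation effect was -1.02 ± 0.12 in scramble cells (edgeR adjusted p 1.34e-07), and knockdown gave -0.51 ± 0.12 in WT cells (edgeR adjusted p 0.000746) and -1.36 ± 0.12 in truncation cells (edgeR adjusted p 5.21e-10). Without WT knockdown replicate 2 the effect in WT cells was -0.37, with an edgeR adjusted p of 0.00176. Truncation knockdown stood 5.19-fold below WT scramble (-2.38 ± 0.12). Annotation lists 1 pseudogene of SCD, and how reads were shared with it is not given.

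The desaturases of polyunsaturated fatty acids fell in each of these comparisons. FADS1, the delta-5 desaturase, stood at 103, 110.0, 108 and 99.0 CPM in the WT scramble libraries, at 70.8, 48.5, 64.3 and 65.4 in WT knockdown, at 63.8, 65.6, 60.1 and 63.7 in truncation scramble and at 23.9, 23.9, 34.0 and 25.6 in truncation knockdown. The WT knockdown and truncation scramble libraries overlapped between the WT scramble and the truncation knockdown levels. Its truncation effect in scramble cells (-0.74 ± 0.10) and knockdown effect in WT cells (-0.74 ± 0.10) were of the same size, and knockdown in truncation cells gave -1.20 ± 0.10. FADS2, the delta-6 desaturase, stood at 17.8, 19.3, 18.6 and 18.7 CPM in the WT scramble libraries, at 9.94, 10.2, 10.2 and 9.82 in WT knockdown, at 11.9, 12.02, 10.3 and 12.5 in truncation scramble and at 4.76, 3.82, 5.96 and 5.42 in truncation knockdown. WT scramble was the highest group and truncation knockdown the lowest, with no overlap to the others. Knockdown lowered FADS2, with log2 fold changes of -0.88 ± 0.09 in WT cells (edgeR adjusted p 1.97e-08), the most negative value of the class in that comparison, and -1.19 ± 0.10 in truncation cells. FADS1 (chromosome 11, 61799625 to 61829318) lies inside the annotated span of FADS2 (61792980 to 61867354) on the opposite strand. Overlaps of FADS1 exons with other genes add up to 5.57% of their bases. With the strand setting of the counting not known, reads there cannot be assigned. Annotation also lists 1 pseudogene of FADS2.

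The remaining enzymes of the class moved less. ACACA, the acetyl-CoA carboxylase, fell by 0.64 ± 0.07 with the truncation, and its log2 fold changes were -0.21 ± 0.07 and -0.35 ± 0.07 with knockdown in WT and truncation cells. ACLY, the citrate lyase, fell by 0.28 ± 0.05 with the truncation in scramble cells, was at 0.06 ± 0.05 for knockdown in WT cells and fell by 0.15 ± 0.05 in truncation cells, the last call being lost with upper-quartile scaling at -0.10. ELOVL6, the elongase of saturated chains, fell with the truncation (-0.60 ± 0.06 and -0.52 ± 0.06) and was not called for knockdown, where the 95% intervals were -0.12 to 0.16 in WT and -0.04 to 0.24 in truncation cells, the latter value being called with upper-quartile scaling. LPIN1, a phosphatidate phosphatase of triglyceride synthesis, stood at 27.3, 31.1, 30.8 and 27.0 CPM in the WT scramble libraries, at 27.5, 26.5, 30.1 and 27.6 in WT knockdown, at 24.7, 25.8, 24.7 and 24.1 in truncation scramble and at 32.5, 32.5, 33.0 and 36.5 in truncation knockdown. It was the exception of the class. The truncation lowered it in scramble cells (-0.24 ± 0.07) and raised it in knockdown cells (0.28 ± 0.07), and knockdown raised it in truncation cells (0.47 ± 0.07, edgeR adjusted p 1.71e-06) beside -0.04 ± 0.07 in WT cells.

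Both SREBF genes were lower in truncation cells, and knockdown lowered SREBF1 as well. SREBF1 (ENSG00000072310, chromosome 17, 17810399 to 17837002) stood at 432, 428, 394 and 464 CPM in the WT scramble libraries, at 257, 146, 229.8 and 253 in WT knockdown, at 291, 282, 298 and 294 in truncation scramble and at 86.1, 82.9, 109 and 90.2 in truncation knockdown. Each truncation scramble library lay below WT scramble and above WT knockdown, and all truncation knockdown libraries lay below the rest. Knockdown lowered it, with log2 fold changes of -0.94 ± 0.11 in WT cells (edgeR adjusted p 1.65e-07) and -1.63 ± 0.12 in truncation cells (edgeR adjusted p 1.3e-11), the most negative value of the 35 genes in either comparison. Without WT knockdown replicate 2, the lowest of its group, the WT effect was -0.79. The truncation lowered it, with log2 fold changes of -0.57 ± 0.11 in scramble cells and -1.26 ± 0.11 in knockdown cells, and both changes together with -2.20 ± 0.12, which is 4.60-fold. Counts over the whole gene do not separate its isoforms.

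SREBF2 (ENSG00000198911, chromosome 22, 41833079 to 41907308) stood at 280.3, 287, 281 and 269.6 CPM in the WT scramble libraries, at 336, 263, 302 and 314 in WT knockdown, at 234, 224, 230.2 and 222 in truncation scramble and at 198, 204, 208 and 191 in truncation knockdown. WT knockdown spanned a range on both sides of WT scramble, while the truncation groups lay below both WT groups. The truncation lowered it, with log2 fold changes of -0.31 ± 0.06 in scramble cells (edgeR adjusted p 0.00011) and -0.59 ± 0.06 in knockdown cells (edgeR adjusted p 8.33e-09). Knockdown gave 0.13 ± 0.06 in WT cells, not called (edgeR adjusted p 0.0621), and -0.15 ± 0.06 in truncation cells (edgeR adjusted p 0.0294), a call lost with upper-quartile scaling at -0.10. The WT value was called with upper-quartile scaling (edgeR adjusted p 0.0475) and by the DESeq2 Wald test (adjusted p 0.0417), and without WT knockdown replicate 2 it was 0.20 (edgeR adjusted p 0.00138).

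SCAP, the escort of both SREBPs, responded to knockdown and not detectably to the truncation. It stood at 121, 116, 112 and 123 CPM in the WT scramble libraries, at 84.8, 79.7, 70.8 and 90.7 in WT knockdown, at 125, 116, 125 and 118 in truncation scramble and at 78.5, 79.4, 78.9 and 87.3 in truncation knockdown. The scramble groups of the 2 genotypes overlapped, as did the knockdown groups, and no knockdown library reached a scramble library. Knockdown lowered SCAP, with log2 fold changes of -0.53 ± 0.06 in WT cells and -0.54 ± 0.06 in truncation cells (edgeR adjusted p 1.01e-07 and 3.42e-08), while the truncation gave 0.02 ± 0.06 and 0.00 ± 0.06, with 95% intervals of -0.11 to 0.15 and -0.13 to 0.14.

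INSIG1 (ENSG00000186480, chromosome 7, 155297776 to 155310235) was lowered by the truncation at either siRNA, and by knockdown in truncation cells. It stood at 106, 99.9, 108 and 100.3 CPM in the WT scramble libraries, at 102, 77.3, 112 and 104 in WT knockdown, at 50.3, 54.7, 52.2 and 52.4 in truncation scramble and at 38.1, 35.2, 41.3 and 31.1 in truncation knockdown. The truncation scramble libraries sat at about the same value, well below every WT library, and the WT groups overlapped. The truncation lowered INSIG1 2.00-fold in scramble cells (-1.0 ± 0.09, edgeR adjusted p 1.66e-09) and with -1.44 ± 0.09 in knockdown cells. Knockdown in WT cells gave -0.05 ± 0.09 (95% interval -0.24 to 0.14), with replicate 2 the lowest library, and 0.05 without it. In truncation cells knockdown lowered it, with a log2 fold change of -0.49 ± 0.09 (edgeR adjusted p 5.86e-05).

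INSIG2, the second retention protein, stood at 20.9, 18.4, 23.2 and 20.3 CPM in the WT scramble libraries, at 25.5, 19.3, 26.6 and 21.9 in WT knockdown, at 20.3, 20.1, 22.1 and 23.1 in truncation scramble and at 25.5, 24.2, 28.9 and 23.6 in truncation knockdown. The groups overlapped except for the 2 groups of truncation cells and for truncation knockdown against WT scramble. Knockdown raised it in truncation cells (0.29 ± 0.09, edgeR adjusted p 0.0109), a call lost without truncation scramble replicate 1 or 2 or truncation knockdown replicate 3 (edgeR adjusted p up to 0.0802). In WT cells the value was 0.18 ± 0.09, and the truncation gave 0.03 ± 0.10 in scramble cells, neither of which was called. The WT value was called with the replicate block and without WT scramble replicate 3 or WT knockdown replicate 2 (0.27 without the latter, edgeR adjusted p 0.0147). The cytosolic sterol carrier STARD4 was at -0.13 ± 0.11 for the truncation in scramble cells and -0.20 ± 0.11 for knockdown in WT cells, neither called, and fell by 0.73 ± 0.12 with knockdown in truncation cells (edgeR adjusted p 9.09e-06). Its WT knockdown value was -0.10 without WT knockdown replicate 2, was -0.32 and called without replicate 3 (edgeR adjusted p 0.0185), and was called with no filter (edgeR adjusted p 0.0183) and with the replicate block (edgeR adjusted p 0.0212).

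Of the LXR targets, ABCA1 rose with each change. At low levels, with 50.0, 96.0, 78.0 and 59.0 counts in the 4 WT scramble libraries, ABCA1 (ENSG00000165029, chromosome 9, 104781002 to 104928237) stood at 1.74, 3.35, 2.71 and 2.11 CPM in the WT scramble libraries, at 8.16, 4.86, 7.88 and 4.88 in WT knockdown, at 5.18, 5.48, 5.40 and 4.19 in truncation scramble and at 7.43, 8.39, 9.21 and 8.82 in truncation knockdown. All WT scramble libraries lay below all others, and WT knockdown replicates 2 and 4 were close to the truncation scramble level. The truncation raised it by 1.02 ± 0.19 in scramble cells (edgeR adjusted p 0.000103), and knockdown by 1.39 ± 0.18 in WT cells (edgeR adjusted p 7.94e-07) and 0.77 ± 0.16 in truncation cells (edgeR adjusted p 0.000264). Truncation knockdown was 3.46-fold above WT scramble. The truncation effect in knockdown cells, 0.40 ± 0.16, lost its call without any of 8 single libraries, namely WT knockdown replicate 2 or 4, truncation scramble replicate 1, 2 or 3 and truncation knockdown replicate 2, 3 or 4 (edgeR adjusted p up to 0.173).

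MYLIP, a ubiquitin ligase that removes lipoprotein receptors, stood at 11.5, 14.3, 13.7 and 12.6 CPM in the WT scramble libraries, at 17.9, 14.99, 16.1 and 14.6 in WT knockdown, at 11.3, 11.1, 10.8 and 10.8 in truncation scramble and at 14.4, 12.1, 12.5 and 11.9 in truncation knockdown. The truncation lowered it, with a log2 fold change of -0.26 ± 0.09 in scramble cells, a call lost without WT scramble replicate 2 or truncation scramble replicate 3 (edgeR adjusted p up to 0.0679), and with -0.31 ± 0.08 in knockdown cells. Knockdown raised it by 0.30 ± 0.08 in WT cells and 0.25 ± 0.09 in truncation cells, where the call was lost without truncation scramble replicate 2, 3 or 4 or truncation knockdown replicate 1 and the value went down to 0.16 (edgeR adjusted p up to 0.134). ABCG1, at 1.74, 2.51, 2.12 and 1.72 CPM in WT scramble, was called in none of the 6 comparisons, and its 95% interval for knockdown in WT cells was -0.20 to 0.62.

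Whether knockdown acted differently in the 2 genotypes was tested by the interaction. The most negative interaction was that of SCD (-0.85 ± 0.16, edgeR adjusted p 0.00274), followed by SREBF1 (-0.68 ± 0.16, edgeR adjusted p 0.011) and FASN (-0.50 ± 0.11, edgeR adjusted p 0.00796). All 3 fell with knockdown in WT cells and fell further in truncation cells. LPIN1 had the only called positive interaction of the 35 genes (0.52 ± 0.10, edgeR adjusted p 0.00204). In FADS1 (-0.46), LSS (-0.42) and ACLY (-0.22) the sign was the same as in SCD, as it was in the control genes INSIG1 (-0.44) and SREBF2 (-0.28). The sterol enzymes SQLE (-0.39), FDFT1 (-0.33), NSDHL (-0.27), ACAT2 (-0.46) and DHCR7 (-0.38) rose in WT cells or, for DHCR7, were not called there, and were lower or not called in truncation cells. For MSMO1, SC5D and HMGCS1 the interactions were -0.18 ± 0.09, -0.08 ± 0.09 and -0.26 ± 0.09, and none was called, although that of HMGCS1 was with the replicate block, by the DESeq2 Wald test and without WT scramble replicate 3 or truncation knockdown replicate 3. Over the 35 genes the median interaction was -0.28, beside -0.01 over all tested genes. Values below 0 were found for 31 of the 35 genes and for 8938 of the 17104 tested genes.

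The interaction calls of SCD, SREBF1, FASN, ACAT2, SQLE, DHCR7, FDFT1 and LPIN1 held in each of the 16 fits that left out 1 library. The call of FADS1 was lost in 14 of these 16 fits and that of ACLY in 10. Those of INSIG1, LSS, NSDHL and SREBF2 were each lost in several. Over these losses the edgeR adjusted p was up to 0.104. All of these calls were also lost with upper-quartile scaling. The number called below 0 went to 7 without WT scramble replicate 2, to 8 without WT scramble replicate 1 or 4, WT knockdown replicate 1 or 4, truncation scramble replicate 3 or truncation knockdown replicate 4, and to 17 without WT knockdown replicate 2. Without that last library the interaction was -0.99 for SCD, -0.84 for SREBF1 and -0.60 for FASN, and STARD4 (-0.62), TM7SF2 (-0.54), MVK (-0.37) and ABCA1 (-0.74) were called as well.

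**Figure D4:**
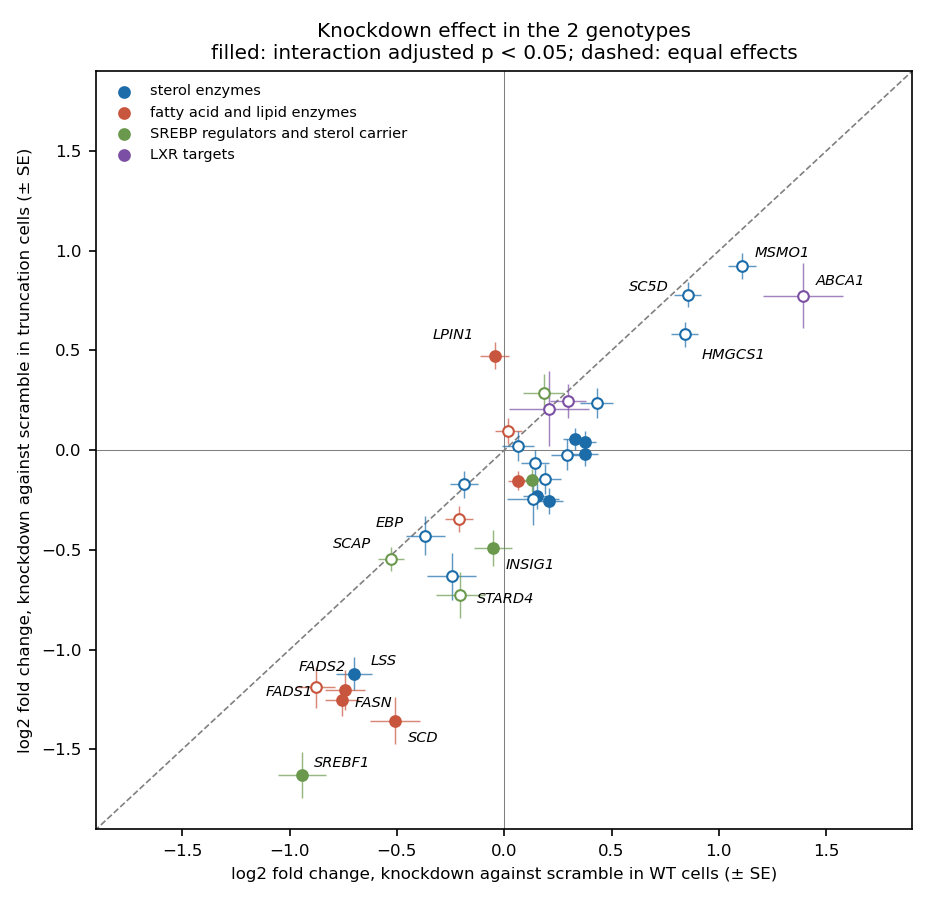
Log2 fold change with knockdown in truncation cells (vertical axis) against that in WT cells (horizontal axis) for the 35 genes, with standard errors, coloured by class; filled points have an interaction called at an edgeR adjusted p under 0.05, and the dashed line marks equal effects. SREBF1, SCD and FASN lie below the line in the lower left, MSMO1 and SC5D close to it in the upper right, and LPIN1 above it.

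Other genes of these pathways were read from further lists. Their counts stand against the shares of all tested genes given above, which for knockdown were 25.2% higher and 25.1% lower in WT cells and 28.7% and 28.1% in truncation cells, and for the truncation in scramble cells 21.6% and 22.4%. Of 9 genes that process SREBPs or act with INSIG proteins, knockdown raised 6 (66.7%) in each genotype and lowered 1 in each. ERLIN1 and ERLIN2, scaffold proteins of the endoplasmic reticulum that take part in the turnover of sterol-regulated proteins, rose by 0.63 ± 0.06 and 0.54 ± 0.07 in WT cells and by 0.70 ± 0.06 and 0.69 ± 0.07 in truncation cells. The truncation in scramble cells raised 3 and lowered 4 of the 9, with ERLIN1 at -0.55 ± 0.06 and the SREBP protease MBTPS1 at 0.35 ± 0.04.

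The isoprenoid branch leaves the pathway at farnesyl diphosphate. Knockdown raised 4 (36.4%) and lowered 5 (45.5%) of its 11 genes in WT cells, and raised 4 and lowered 6 (54.5%) in truncation cells, where 25.2% and 25.1%, and 28.7% and 28.1%, of all tested genes were called. COQ2, which attaches the isoprenoid tail of coenzyme Q, fell in both genotypes (log2 fold changes -1.39 ± 0.08 and -1.48 ± 0.08), and PDSS1, which makes that tail, fell in WT cells (-0.53 ± 0.07). FNTA, the shared subunit of the protein prenyltransferases, rose by 0.80 ± 0.08 in truncation cells. With the truncation in scramble cells 5 rose and 1 fell, among them FNTB (0.43 ± 0.10) and DHDDS (0.38 ± 0.06).

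Among sterol transport and esterification genes 10 of 11 were tested. The truncation in scramble cells raised 5 and lowered 4, led by the sterol transfer protein GRAMD1B (1.35 ± 0.08) and the lipoprotein receptor SCARB1 (-0.61 ± 0.07). Knockdown raised 5 and lowered 3 in WT cells, with GRAMD1C at 1.17 ± 0.12 and GRAMD1A at -0.82 ± 0.08, and raised 5 and lowered 4 in truncation cells, with GRAMD1C at 1.41 ± 0.12 and SCARB1 at -1.28 ± 0.07. Interactions were called for 5 genes. Of these 2 (20% of those tested) lay above 0 and 3 (30%) below, where 2.05% and 3.65% of all tested genes were called. The median interaction of the list was -0.04. SCARB1 (-0.47 ± 0.10) and TMEM97 (-0.42 ± 0.08) were the largest in size.

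Of 22 other fatty acid enzymes the truncation in scramble cells lowered 11 and raised 5. ACSL5, an acyl-CoA synthetase, fell by 2.17 ± 0.09, a larger drop than that of any of the 35 genes in that comparison, and ME1, a source of NADPH for synthesis, rose by 1.10 ± 0.06. Knockdown lowered 9 and raised 3 in WT cells, among them ACSS2 (-0.78 ± 0.07), which makes acetyl-CoA from acetate, and ACSL5 (-0.75 ± 0.09). In truncation cells it lowered 11 and raised 3, with ACSL5 at -1.0 ± 0.10 and MID1IP1, an activator of acetyl-CoA carboxylase, at -0.87 ± 0.06. The interaction was called for ACACB (-0.57 ± 0.15) and ACSL3 (-0.32 ± 0.10), both below 0. They are 9.09% of the list, where 3.65% of all tested genes were called below 0.

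Fatty acid oxidation, the opposing pathway, was read from 15 genes. With the truncation in scramble cells 7 rose and 2 fell, and ACADVL, the very long chain acyl-CoA dehydrogenase, rose by 0.84 ± 0.06 and ECI2 by 0.64 ± 0.07. Knockdown raised 5 (33.3%) and lowered 4 (26.7%) in WT cells, shares near the 25.2% and 25.1% of all tested genes. There ACADVL (-0.57 ± 0.06) and ECI1 (-0.44 ± 0.07) fell. In truncation cells it raised 8 (53.3%) and lowered 4 (26.7%), with 28.7% and 28.1% called over all tested genes, and ECI1 (-0.65 ± 0.07) and ACADVL (-0.54 ± 0.06) fell. The median log2 fold change of the list with the truncation in scramble cells was 0.16, beside -0.66 for the 8 fatty acid and lipid enzymes and -0.02 over all tested genes.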

How the data were processed

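Bulk RNA of 16 HCT116 libraries, 4 in each of 4 groups, was read from 3 deposited tables. Per the submitters' processing notes, STAR 2.7.3a, DESeq2, edgeR and limma were used with build hg38, with no role or order stated. Which program counted reads, with which annotation and strand setting, was not given in the sources used. The deposited counts are raw counts per Ensembl gene, and the filtered count table of 22916 genes deposited by the authors holds the same values. The deposited CPM values are a signal that the authors scaled by TMM, and they differ from TMM-scaled CPM of the filtered table by at most 5e-15 as a share of the value.

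Levels were read from the deposited CPM. Fold changes came from edgeR 4.0.16 in R 4.3.3 on the raw counts, with its filter on low counts (17104 genes), TMM scaling, 1 coefficient per group and the quasi-likelihood test on 12 residual degrees of freedom. P-values were adjusted by Benjamini-Hochberg over all tested genes, and 95% intervals came from the same standard errors. The scripts were tested on simulated data. Alternatives were upper-quartile scaling, DESeq2 size factors, no filter, a replicate block, only the groups compared, the Wald test of DESeq2 1.42.0 and leaving out each library. Positions come from GENCODE 29 on GRCh38.

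The 35 genes and all lists were chosen with earlier results of these data known. All 35 genes are named. In each class the levels of every library are given for up to 3 called genes with the largest fold change per comparison (knockdown in WT cells, truncation in scramble cells, interaction) and for the SREBF and INSIG genes. From each other list up to 2 called genes of largest size per comparison are given.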

Additional observations from a re-analysis of the deposited data

Results flagged for a closer look

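In 6 of the 140 sets of 4 libraries formed by a gene and a group, 1 library lay apart from the other 3 by a gap above the 95% critical value of Dixon's test, which chance alone gives in about 1 in 20 groups. CYP51A1 stood at 8.34 CPM in WT knockdown replicate 3, against 11.2 to 11.7 in the other libraries of that group. ELOVL6 stood at 79.4 CPM in the same library, against 74.5 to 75.0 in its group. TM7SF2 stood at 15.7 CPM in WT knockdown replicate 2, against 24.7 to 27.1. In truncation knockdown replicate 4 LPIN1 was at 36.5 CPM, against 32.5 to 33.0, and SCAP was at 87.3 CPM, against 78.5 to 79.4. STARD4 stood at 45.8 CPM in truncation scramble replicate 3, against 41.7 to 42.1.

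By the edgeR interaction test a different knockdown effect in the 2 genotypes was called for 14 of the 35 genes. Over all tested genes 3.65% were called below 0 and 2.05% above 0. The calls of ACLY, FADS1, INSIG1, LSS, NSDHL and SREBF2 were lost with upper-quartile scaling and without some single libraries. The difference, truncation cells minus WT cells on the log2 scale, was -0.85 for SCD (edgeR adjusted p 0.00274), -0.68 for SREBF1 (edgeR adjusted p 0.011) and -0.50 for FASN (edgeR adjusted p 0.00796). It was -0.46 for ACAT2 and for FADS1 (edgeR adjusted p 0.00394 and 0.0481), -0.44 for INSIG1 (edgeR adjusted p 0.0392) and -0.42 for LSS (edgeR adjusted p 0.035). The sterol enzymes SQLE, DHCR7, FDFT1 and NSDHL stood at -0.39, -0.38, -0.33 and -0.27 (edgeR adjusted p 0.0079, 0.0134, 0.0127 and 0.0374). SREBF2 was at -0.28 (edgeR adjusted p 0.0414) and ACLY at -0.22 (edgeR adjusted p 0.0479). LPIN1 was the exception in sign, at 0.52 (edgeR adjusted p 0.00204).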

How the results depend on the processing

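In each comparison 35 genes gave 35 values, 210 in all. None that was called in either fit changed direction, and values called in neither fit were not compared for direction. Under each change of scaling, filter, block or test, 198 or more of the 210 kept their side of the threshold. So did 171 of the 175 that a fit of only the groups compared could give. That fit called 2 genes higher for the truncation in scramble cells, where 1 was called with all groups, ACAT2 being added at 0.14. With upper-quartile scaling 7 genes had a called interaction below 0, where 13 had one with TMM. That scaling shifted the interaction of all tested genes by a median of 0.05. The median interaction of the 35 genes was -0.23 with it and -0.28 with TMM. The cause was not tested in either case.

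Whether the replicate numbers pair the libraries was not settled. The deviations of same-numbered libraries correlated at -0.08 to 0.16, and 4 of 24 pairs were over 0.1. For 6 of 16 libraries the best match in the other groups had their own number. Correlations of differently numbered pairs are not given here. With the replicate block 6 of 210 values became called and none was lost, 16 genes had a called interaction below 0, and the interaction was called for 1150 of all genes against 974. It was called for 1396 with the DESeq2 Wald test.

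Leaving out 1 library at a time gave 6628 to 8036 genes for the truncation in scramble cells, 7876 to 8736 for knockdown in WT cells, 9113 to 10087 for knockdown in truncation cells, 7061 to 8080 for the truncation in knockdown cells, 11000 to 11692 for both changes together and 653 to 1661 for the interaction, the last without WT knockdown replicate 2. Among the 35 genes it gave 7 to 17 called interactions below 0, 11 to 16 rises and 9 to 11 falls with knockdown in WT cells, 6 to 8 rises and 17 to 18 falls in truncation cells, 22 to 24 falls with the truncation in scramble cells, and 1 to 2 rises and 28 to 29 falls in knockdown cells. ABCG1 and ABCA1 had the lowest counts of the 35 genes in WT scramble libraries.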
